A study of Mus musculus with 8 samples.

Results

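Genes of the mouse heart ventricle that encode proteins with leucine-rich repeats were followed, namely Lrtm1, Lrrc15, Lrrc4b, Lrrc2, Lrrc10 and Lrrc39. They are 6 of the 24341 genes in the deposited table of FPKM, a read level corrected for transcript length and library size, matched by gene symbol. They were chosen from this same comparison, because several of them were much lower in the Pos Cre than in the Neg Cre libraries, with heart-enriched relatives added for contrast. Their values between the groups are therefore a description, and no test is given for them. RNA was sequenced from ventricular lysates of male mice of 12 weeks, 4 weeks after tamoxifen. Each of the 8 libraries carried floxed alleles of both Med13 and Med13L (strain Med13/13L fl/fl) and came from mice on tamoxifen chow. The 4 Pos Cre libraries also carried a Cre that, per the series title, acts in cardiomyocytes, and the 4 Neg Cre libraries carried none. The Cre line and its promoter are not named in the labels, and no group received Cre without floxed alleles or was kept without tamoxifen, so effects of Cre itself and of the deletion cannot be told apart.

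A leucine-rich repeat is a short stretch with leucines at fixed positions, and repeats stacked in tandem fold into a curved surface that binds other proteins. Proteins built this way serve as adhesion molecules and receptors at the cell surface, or as scaffolds inside the cell. Lrtm1, Lrrc15 and Lrrc4b encode membrane proteins whose repeats face outward. Lrrc15 is best known from activated fibroblasts, and Lrrc4b, also called NGL-3, from synapses, where it binds receptor phosphatases of the LAR family. Lrrc10 is made mainly in cardiomyocytes and binds actin and alpha-actinin. Lrrc39, also called myomasp, belongs to the M-band of the sarcomere and binds a myosin heavy chain, and Lrrc2 is a gene of heart and skeletal muscle whose protein has been linked to mitochondria.

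The members lie on 6 chromosomes. The bases just before their start sites are shown because 3 members, Lrtm1, Lrrc15 and Lrrc4b, differed between the groups by large and similar factors. In RefSeq (GRCm38.p6, the assembly of mm10) each of the 6 members had a window of 250 bases before and 50 after the start. The first 250 bases are given 5′ to 3′ for the 3 members with large differences and for Lrrc10, which stood at like levels in both groups, and capitals mark matches to the motifs searched. They are chr14:29017958-29018207 (plus strand), chr16:30283255-30283504 (minus strand), chr7:44442237-44442486 (plus strand) and chr10:117045091-117045340 (plus strand). For Lrrc4b the RefSeq start lies 2 bases from the start of 1 GENCODE transcript but 13469 bases inside the gene from its outermost start, so the bases before the outermost start were not examined. The end of its window was not found at the beginning of any GENCODE transcript, and the reason was not tested.
Lrtm1: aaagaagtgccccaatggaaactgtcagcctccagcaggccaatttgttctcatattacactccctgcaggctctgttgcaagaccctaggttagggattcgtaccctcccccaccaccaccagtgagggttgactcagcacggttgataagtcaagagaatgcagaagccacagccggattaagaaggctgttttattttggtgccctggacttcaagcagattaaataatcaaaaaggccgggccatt
Lrrc15: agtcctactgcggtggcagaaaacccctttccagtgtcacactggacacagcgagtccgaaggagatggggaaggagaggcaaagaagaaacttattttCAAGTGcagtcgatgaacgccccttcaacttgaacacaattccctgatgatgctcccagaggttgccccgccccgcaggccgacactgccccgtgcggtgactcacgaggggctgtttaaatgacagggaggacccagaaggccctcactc
Lrrc4b: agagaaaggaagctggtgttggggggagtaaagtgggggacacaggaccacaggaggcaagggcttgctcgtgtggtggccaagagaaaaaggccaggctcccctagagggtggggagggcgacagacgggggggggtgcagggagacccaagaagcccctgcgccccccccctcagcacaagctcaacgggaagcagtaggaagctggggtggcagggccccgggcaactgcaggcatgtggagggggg
Lrrc10: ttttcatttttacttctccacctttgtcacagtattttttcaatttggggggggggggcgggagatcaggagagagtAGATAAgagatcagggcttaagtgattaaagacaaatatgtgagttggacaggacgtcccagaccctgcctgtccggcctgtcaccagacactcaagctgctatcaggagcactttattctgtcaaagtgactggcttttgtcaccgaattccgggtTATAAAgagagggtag
The windows were searched on both strands for 7 motifs. TATAAA is a core promoter element, and GGAATG is bound by TEAD factors. AGATAA is a site of Gata4 and its relatives, and AAGGTCA is bound by estrogen-related receptors. CAAGTG is bound by NKX2-5, AAAATAG is the core of a MEF2 site, and the CArG box is bound by serum response factor. Except for the CArG box, each motif was searched only as the exact string printed here. Variant sites of the same factors were not searched, so a window without a match may still hold one. Lrrc10 held TATAAA with its first base at -16 and AGATAA at -173. Lrrc15 held CAAGTG at -151. Lrtm1 and Lrrc4b held none of the 7 motifs, in the forms searched, in the windows used. Among the other members, Lrrc2 held TATAAA on the opposite strand at -64 and Lrrc39 held CAAGTG on the opposite strand at 13 bases into the transcript. Of all 32851 windows of this length, 13.6% held TATAAA, 14.7% GGAATG, 11.2% AGATAA, 4.72% AAGGTCA, 13.6% CAAGTG, 4.22% AAAATAG and 1.63% a CArG box. GC content was 49.3% for Lrtm1, 58.7% for Lrrc15 and 66.3% for Lrrc4b against a median of 52.7%. The Lrrc39 window consists largely of a repeat with a period of 45 bases, at 97% identity one period on over 100 bases, and the other 5 windows reached at most 45% by the same measure.

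The 8 libraries held an estimated 4.47 to 22.9 times 1e+06 fragments, and 1 FPKM was reached by 11540 to 11635 genes in each. Rn45s, a precursor of ribosomal RNA, was high in 5 libraries with 396 to 1053 FPKM (Neg Cre 1, 3 and 4, Pos Cre 1 and 2) and low in 3 with 10.3 to 16.0 FPKM (Neg Cre 2, Pos Cre 3 and 4), called here the high-Rn45s and the low-Rn45s libraries. The second set also had the greatest estimated depth. Med13l fell from 4.92 ± 0.814 to 2.52 ± 0.113 FPKM and Med13 from 12.0 ± 2.23 to 8.13 ± 0.554 FPKM (± SD, n = 4 each, limma adjusted p = 0.000318 and 0.00612). Under scaling of each library to a fixed sum of FPKM the Med13 call was lost (log2 change -0.23, adjusted p = 0.168). Cardiomyocyte markers were plentiful, as 8 of them summed to 53110 to 56011 FPKM in Neg Cre and 27242 to 30049 FPKM in Pos Cre libraries, and 6 of the 8 fell. Nppa, the natriuretic peptide gene, rose from 587 ± 88.1 to 3577 ± 878 FPKM. The test took in 11688 genes and called 39.2% of them, made up of 19.7% higher in Pos Cre and 19.4% lower. In bulk ventricle, fewer cells of a type and less RNA per cell cannot be told apart. The library names of Neg Cre 1 and 2 share their first part and the labels do not say whether these came from separate animals, so p-values measure only the spread between these samples.

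Lrtm1, Lrrc15 and Lrrc4b were present in each Neg Cre library at 4.45 times or more the level of any Pos Cre library. Lrtm1 stood at 102, 94.2, 122 and 78.5 FPKM in Neg Cre libraries 1 to 4 and at 5.40, 8.79, 10.04 and 10.2 FPKM in Pos Cre libraries 1 to 4. The groups did not overlap, and the lowest Neg Cre library had 7.70 times the level of the highest Pos Cre library. The means were 99.3 ± 18.3 and 8.60 ± 2.22 FPKM (± SD, n = 4 each), a difference of -3.40 in log2(FPKM + 1), where the added 1 shrinks changes at low levels. Lrtm1 thus went from the 93.8 percentile of the tested genes by level in Neg Cre to the 48.0 percentile in Pos Cre. It ranked 4 of 11688 genes from the largest fall.

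Lrrc15 stood at 7.40, 8.53, 11.05 and 10.5 FPKM in Neg Cre libraries 1 to 4 and at 0.592, 0.820, 0.991 and 1.25 FPKM in Pos Cre libraries 1 to 4. Each Pos Cre library was below each Neg Cre library, with a smallest ratio of 5.91. The means were 9.36 ± 1.70 and 0.914 ± 0.278 FPKM (± SD, n = 4 each), and the log2 difference was -2.43. Lrrc15, known from activated fibroblasts, was thus at 9.76% of its Neg Cre mean, while the fibroblast list was mixed and most of its genes rose. Of 10 fibroblast markers 6 rose and 2 fell, and their sum ran from 698 to 825 FPKM in Neg Cre and from 1032 to 1190 FPKM in Pos Cre libraries. The 2 that fell were Dpt, from 57.8 ± 2.73 to 39.7 ± 1.58 FPKM, and Dpep1, from 34.6 ± 5.71 to 23.5 ± 3.14 FPKM (± SD, n = 4 each, limma adjusted p = 0.000165 and 0.00921). Col1a1, a chain of type I collagen, rose from 18.0 ± 3.51 to 50.7 ± 6.83 FPKM and Postn, a matricellular protein of activated fibroblasts, from 33.4 ± 5.05 to 168 ± 31.8 FPKM (± SD, n = 4 each), while Pdgfra was not called, at 15.1 ± 0.947 FPKM in Neg Cre and 17.7 ± 1.35 in Pos Cre. The part of fibroblast number or state in the Lrrc15 value was not tested.

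Lrrc4b stood at 8.98, 9.10, 11.3 and 6.90 FPKM in Neg Cre libraries 1 to 4 and at 0.710, 0.615, 0.865 and 1.55 FPKM in Pos Cre libraries 1 to 4. The groups were apart here too, and Pos Cre library 4 was the highest of its group. The means were 9.06 ± 1.78 and 0.935 ± 0.422 FPKM (± SD, n = 4 each), a log2 difference of -2.38. Lrrc4b is best known from synapses, and markers of Schwann cells and neurons were low in both groups. The 8 such markers summed to 3.90 to 4.29 FPKM in Neg Cre and 2.93 to 3.98 FPKM in Pos Cre libraries, none reached the mean of 1 FPKM needed for a test, and Syt1 was listed at the lowest value, 0.01 FPKM, in every library. The 4 Neg Cre libraries each held more Lrrc4b than all of these 8 markers together, and the 4 Pos Cre libraries each held less. Levels of different genes do not show the cells of origin, and the cell source of Lrrc4b was not tested.

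**Figure D1:**
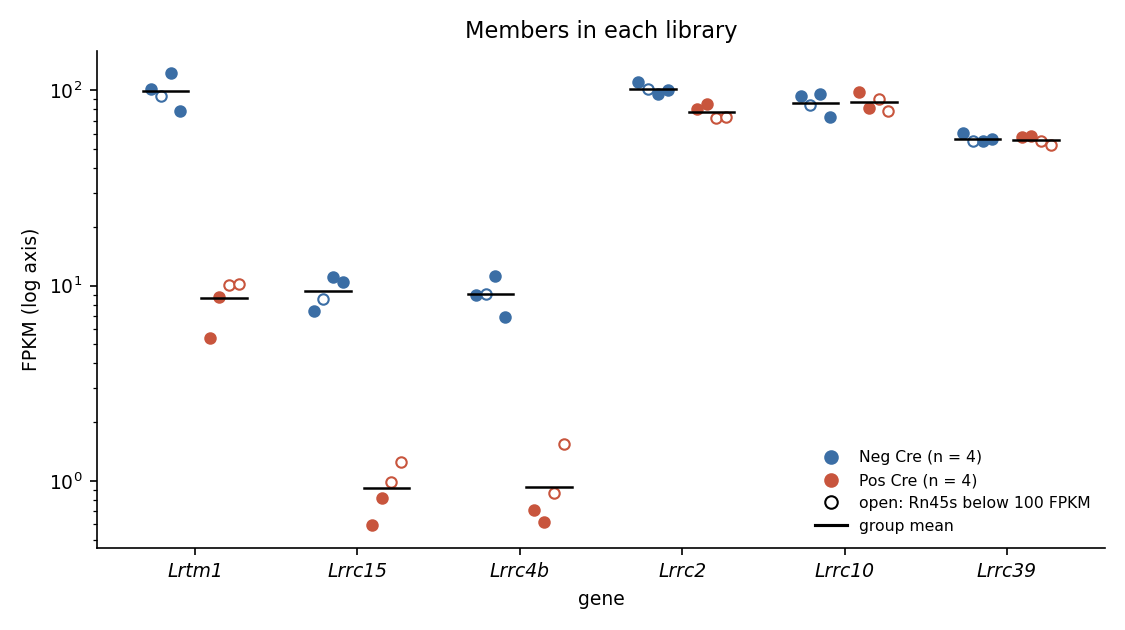
FPKM of the 6 genes (log axis) in each of the 8 libraries, with Neg Cre in blue, Pos Cre in red, open points for libraries with Rn45s below 100 FPKM and black lines for group means. Lrtm1, Lrrc15 and Lrrc4b lie far apart between the groups, Lrrc2 lies apart by a small step, and Lrrc10 and Lrrc39 overlap.

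Lrrc2 differed far less. It stood at 111, 102, 96.0 and 100.4 FPKM in Neg Cre libraries 1 to 4 and at 80.5, 85.1, 72.1 and 72.8 FPKM in Pos Cre libraries 1 to 4. Every Pos Cre library was below every Neg Cre library, by a factor of 1.13 at the closest, and the means were 102 ± 6.25 and 77.6 ± 6.28 FPKM (± SD, n = 4 each), a log2 difference of -0.39. Under scaling of each library to a fixed sum of FPKM this difference shrank to -0.10, as that scaling moved the median of all genes from -0.01 to 0.25. Lrrc2 remained below that median under both scalings.

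Lrrc10 and Lrrc39, the members of the sarcomere and its surroundings, stood at like levels in both groups. Lrrc10 stood at 93.4, 84.7, 95.6 and 73.4 FPKM in Neg Cre libraries 1 to 4 and at 98.3, 81.2, 90.1 and 78.2 FPKM in Pos Cre libraries 1 to 4. The means were 86.8 ± 10.1 and 86.9 ± 9.11 FPKM (± SD, n = 4 each), and the difference of 0.0045 on the log2 scale was well inside the spread between libraries of 0.16 (pooled SD). Lrrc39 stood at 60.5, 54.9, 55.04 and 56.4 FPKM in Neg Cre libraries 1 to 4 and at 57.5, 58.5, 55.3 and 52.4 FPKM in Pos Cre libraries 1 to 4. Its means were 56.7 ± 2.61 and 55.9 ± 2.71 FPKM (± SD, n = 4 each), a log2 difference of -0.02 beside a pooled SD of 0.07. Under scaling to a fixed sum the differences became 0.30 for Lrrc10 and 0.27 for Lrrc39, close to the 0.25 of the median gene, so their place relative to other genes moved little.

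Thus 4 of the 6 members had groups that do not overlap, all 4 lower in Pos Cre, where this holds for 18.7% of tested genes in that direction. The members were chosen from this contrast, and nothing is read from that share. Levels per length were ordered alike among the Neg Cre libraries. Lrrc2 was the highest member in 3 of these 4 libraries and Lrtm1 in Neg Cre library 3, but the ranges of the 2 genes overlapped, as did those of Lrtm1 and Lrrc10. Lrrc39 took rank 4 in each Neg Cre library, below the range of Lrrc10, while Lrrc15 and Lrrc4b shared the lowest places with overlapping ranges. In Pos Cre, Lrrc10 was highest in 3 libraries and Lrrc2 in library 2, with overlapping ranges, Lrrc39 took rank 3, and Lrtm1 rank 4, below the ranges of all 3.

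The level left in Pos Cre varied between libraries, in the same direction for Lrtm1, Lrrc15 and Lrrc4b. As a share of the Neg Cre mean, Lrtm1 stood at 5.44%, 8.85%, 10.1% and 10.3% in Pos Cre libraries 1 to 4, and Lrrc15 at 6.32%, 8.76%, 10.6% and 13.4%. Lrrc4b stood at 7.84%, 6.79%, 9.55% and 17.1%. For each of these genes both low-Rn45s libraries (Pos Cre 3 and 4) were above both high-Rn45s libraries, by 1.43 times in the mean for Lrtm1, 1.59 times for Lrrc15 and 1.82 times for Lrrc4b. For Lrrc2, Lrrc10 and Lrrc39 the same ratio was 0.875, 0.937 and 0.928. Pos Cre 1 and 2 also had the lower estimated depth of the group, 4.47 and 8.71 against 22.9 and 21.9 (times 1e+06 fragments). By that estimate the Pos Cre values of Lrrc4b rested on about 8.66, 14.6, 54.1 and 92.4 fragments and those of Lrrc15 on 14.0, 37.9, 121 and 145 fragments in libraries 1 to 4, while Lrtm1 had 177 or more in each. The part of depth and of the Rn45s set in these values was not tested.

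**Figure D2:**
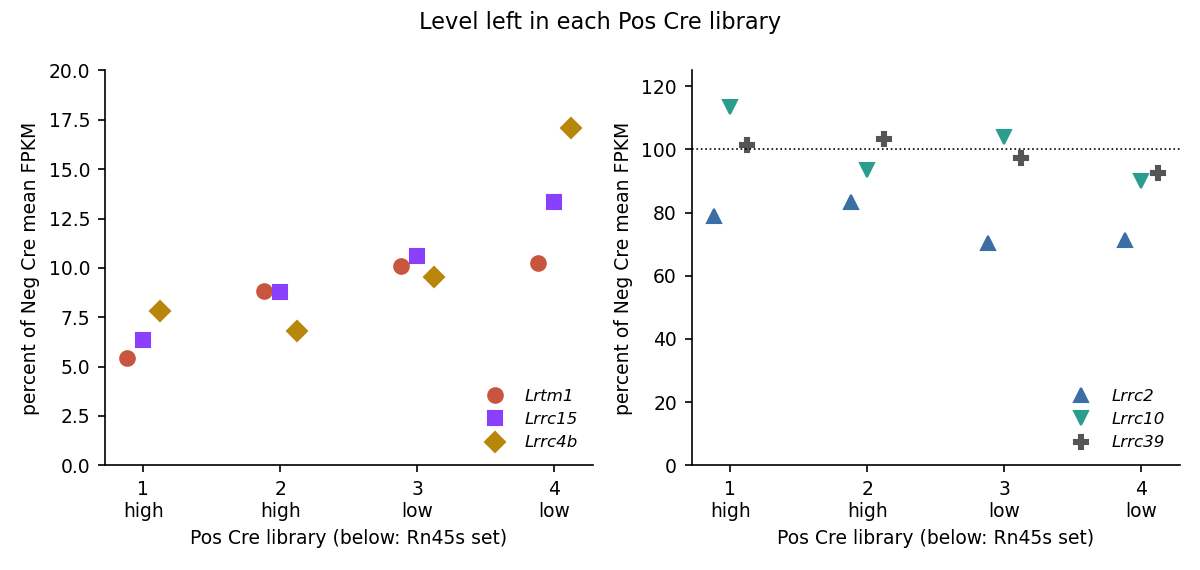
Level of each gene in the 4 Pos Cre libraries as a percent of its mean over the 4 Neg Cre libraries, with the Rn45s set of each library under its number and a dotted line at 100%. Lrtm1, Lrrc15 and Lrrc4b stand at 5.44% to 17.1% and are higher in libraries 3 and 4, Lrrc2 stands at 70.5% to 83.2%, and Lrrc10 and Lrrc39 lie on either side of 100%.

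Lrtm1, Lrrc15, Lrrc4b and Lrrc2 were lower in Pos Cre within each Rn45s set, by differing amounts. Among the 5 high-Rn45s libraries the log2 difference was -3.67 for Lrtm1, -2.63 for Lrrc15, -2.57 for Lrrc4b and -0.30 for Lrrc2. Among the 3 low-Rn45s libraries, with 1 Neg Cre library, it was -3.10, -2.17, -2.21 and -0.48 for the same genes. As ratios of Neg Cre to Pos Cre mean FPKM, the high and the low set gave 14.2 and 9.31 for Lrtm1, 13.7 and 7.61 for Lrrc15, and 13.7 and 7.54 for Lrrc4b. Lrrc10 went from 0.04 to -0.01 and Lrrc39 from 0.02 to -0.03 between the sets, so both stayed near 0.

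Genes around the members were examined next. By the rule used, the 15 genes that overlap a member or lie next to it were taken, of which 6 had a mean of at least 1 FPKM and were tested. Of these 6 genes 2 fell and 0 rose (limma, 0 higher at an unadjusted p under 0.05), or 33.3% called against 39.2% of all tested genes. Counting falls only, this was 33.3% against 19.4%, and nothing is read from a share of 6 genes. Lrtm1 (chromosome 14, 29018208 to 29033645, mm10, plus strand, GENCODE M21) lies inside Cacna2d3, which encodes a calcium channel subunit on the opposite strand, and shares 0 of its 7939 exonic bases with exons of that gene. The table gives both genes one locus, 28904943 to 29721864. Cacna2d3 stood at 0.148 ± 0.0611 FPKM in Neg Cre and 0.216 ± 0.104 FPKM in Pos Cre libraries (± SD, n = 4 each), far below Lrtm1 in each group. The next gene before Lrtm1, the Wnt ligand gene Wnt5a, fell from 2.82 ± 0.660 to 1.49 ± 0.326 FPKM (log2 change -0.61, SE 0.14, limma adjusted p = 0.00704), at a distance of 379428 bases from the shared locus. On the other side Selk, a selenoprotein gene, was not called, at 47.4 ± 1.83 FPKM in Neg Cre and 46.3 ± 3.77 in Pos Cre.

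Lrrc15 (chromosome 16, 30269302 to 30283256, minus strand) lies between Cpn2 and Gp5, which also encode leucine-rich repeat proteins, a subunit of the plasma enzyme carboxypeptidase N and a platelet glycoprotein. Cpn2, 1803 bases from Lrrc15 on the same strand, stood at 0.905, 1.38, 1.41 and 1.21 FPKM in Neg Cre libraries 1 to 4 and at 0.0459, 0.215, 0.113 and 0.255 FPKM in Pos Cre libraries 1 to 4. Its groups did not overlap, and the Neg Cre mean was 7.82 times the Pos Cre mean. That ratio is uncertain, as the Pos Cre values rest on few fragments. In Pos Cre library 1 the 0.592 FPKM of Lrrc15 rested on about 14.0 fragments, and Cpn2 was far lower there. With a mean of 0.692 FPKM over the 8 libraries Cpn2 was below the filter and not tested, and without that filter its log2 change was -0.94 (SE 0.0937, limma adjusted p = 0.00103). No other neighbour below the filter was called without it, and Syt3 beside Lrrc4b came nearest (limma adjusted p = 0.0973). Gp5 was at 0.173 FPKM or less in every library. 

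No neighbour of Lrrc4b (chromosome 7, 44429018 to 44463351, plus strand) reached the level needed for a test. The synaptotagmin gene Syt3 stood at 0.814 ± 0.193 FPKM in Neg Cre and 0.465 ± 0.139 FPKM in Pos Cre (± SD, n = 4 each) with overlapping groups, and Aspdh was listed at 0.01 FPKM throughout. Beside Lrrc39 (chromosome 3, 116562973 to 116583134, plus strand), Dbt, a subunit of the complex that oxidises branched-chain keto acids, fell from 30.8 ± 0.775 to 17.7 ± 1.13 FPKM (log2 change -0.77, SE 0.07, limma adjusted p = 1.87e-05). Lrrc39 itself, 12992 bases on, stood at like levels in both groups. Trmt13, a tRNA methyltransferase gene on the opposite strand, shares 820 of the 5230 exonic bases of Lrrc39, and no source used here says whether counting used strand. It stood at 4.66 ± 0.301 and 4.55 ± 0.622 FPKM, so it was low beside Lrrc39 in both groups, and was not called. Near Lrrc10 (chromosome 10, 117045341 to 117046768, plus strand, a single exon) the chaperonin gene Cct2 was not called, at 98.9 ± 8.18 FPKM in Neg Cre and 110.4 ± 3.30 in Pos Cre (limma adjusted p = 0.125). Its groups did not overlap, and it was called higher under quantile normalization (log2 change 0.27, limma adjusted p = 0.00987) and scaling to a fixed sum (0.45, limma adjusted p = 0.000239). Best3, a chloride channel gene, was below 1 FPKM in each library. Lrrc2 (chromosome 9, 110951545 to 110984066, plus strand) lies between Tdgf1 and Rtp3, both below 1 FPKM in each library. Sass6 was not tested and Hiat1 was not called.

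**Figure D3:**
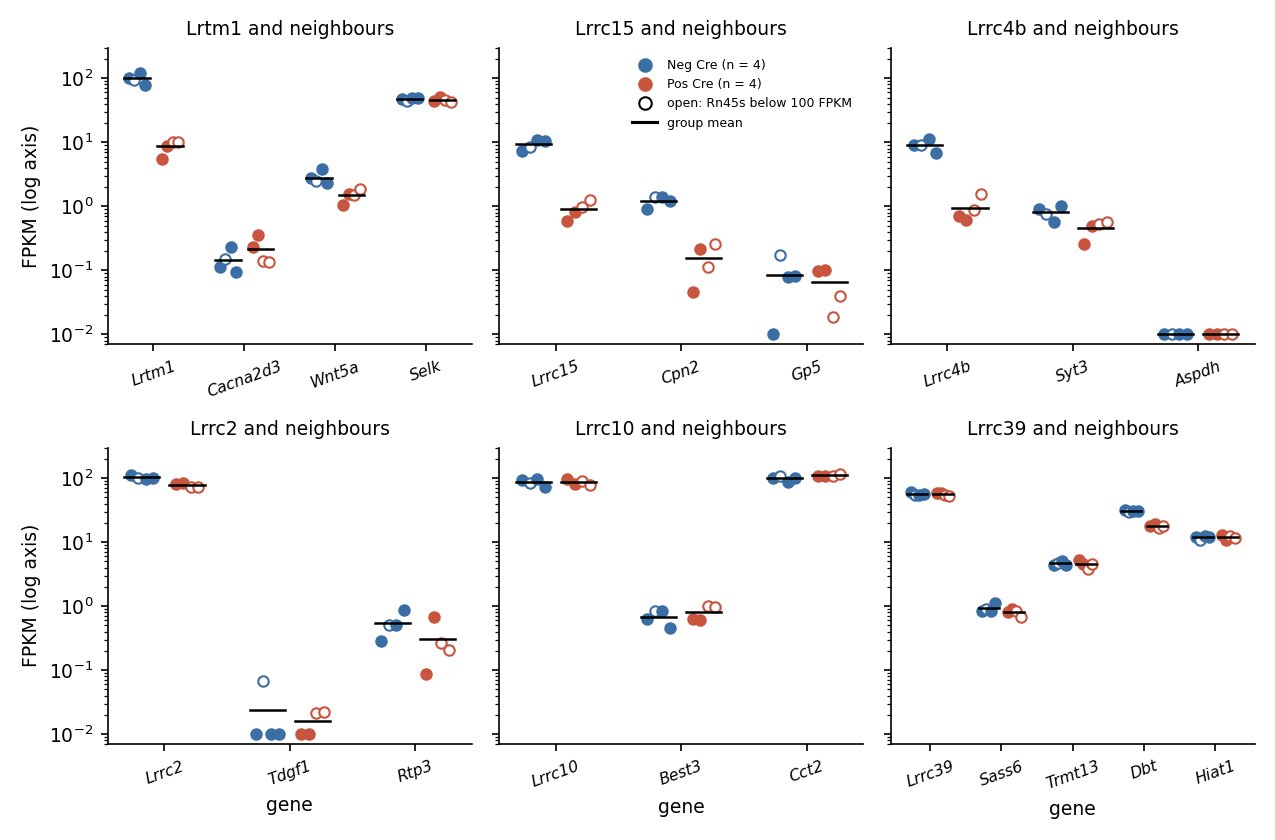
FPKM (log axis) of each member, first in its panel, and of the genes that overlap it or lie next to it, with points for the 8 libraries and black lines for group means. Cpn2 beside Lrrc15 is lower in Pos Cre as Lrrc15 is, at 0.255 FPKM or less in those libraries. Cacna2d3, which surrounds Lrtm1, is below 0.4 FPKM in each library.

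Genes known to bind or regulate the members followed. Of 9 such genes 3 rose, 2 fell and 4 were not called, beside 19.7% higher and 19.4% lower over all tested genes. All 3 genes of the LAR phosphatases, receptors that bind the protein of Lrrc4b, rose. Ptprd went from 2.38 ± 0.452 to 4.51 ± 0.436 FPKM (± SD, n = 4 each, log2 change 0.71, SE 0.11, limma adjusted p = 0.000656). Ptprs went from 13.8 ± 1.18 to 18.3 ± 2.11 FPKM (log2 change 0.38, limma adjusted p = 0.0107) and Ptprf from 0.838 ± 0.0498 to 1.47 ± 0.277 FPKM (log2 change 0.42, limma adjusted p = 0.0142). In Neg Cre libraries Ptprf was at 0.897 FPKM or less, and it reached the filter of 1 FPKM only through Pos Cre. Among the high-Rn45s libraries alone the calls of Ptprs (0.22, adjusted p = 0.166) and Ptprf (0.29, adjusted p = 0.247) were lost.

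For Lrrc10, the partner Cacna1c, the pore of the L-type calcium channel, fell from 32.6 ± 6.60 to 19.8 ± 2.35 FPKM (± SD, n = 4 each, log2 change -0.68, SE 0.14, limma adjusted p = 0.00300). Actn2, the alpha-actinin of the Z disc, was not called, at 722 ± 94.0 FPKM in Neg Cre and 716 ± 22.6 in Pos Cre. Of the factors known to drive Lrrc10, Gata4 fell from 33.0 ± 2.85 to 27.3 ± 2.08 FPKM (log2 change -0.26, SE 0.0875, limma adjusted p = 0.0367). The Gata4 call was lost with no filter (adjusted p = 0.0734), quantile normalization (0.0505), the replicate block (0.0509) and the high-Rn45s libraries alone (0.0768). It was also lost without Neg Cre library 2 (adjusted p = 0.0778), 3 (0.0587) or 4 (0.0855), and without Pos Cre library 1 (0.0886), 2 (0.0809) or 4 (0.0513), with log2 changes from -0.28 to -0.21, and under scaling to a fixed sum its change was 0.02 (adjusted p = 0.834). Nkx2-5 stood at 27.9 ± 1.38 and 31.3 ± 3.09 FPKM and Srf at 27.1 ± 3.10 and 29.6 ± 0.849 FPKM, neither called on the deposited scale, though scaling to a fixed sum made both higher calls (0.44 and 0.41 on the log2 scale). For Lrrc39, the partner Myh7 stood at 262 ± 127 and 155 ± 16.1 FPKM with overlapping groups and was not called (limma adjusted p = 0.126). It was called lower without Neg Cre library 2 (log2 change -0.90, adjusted p = 0.0146) and with Neg Cre libraries 1 and 2 averaged as 1 sample (-0.72, adjusted p = 0.0314). Levels of Myh7 are uncertain where reads also match its neighbour Myh6.

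The wider family of leucine-rich repeat genes showed changes in both directions. Besides the members, 174 genes from 5 lists were in the table, of which 96 were tested. The lists include 3 genes, Lrpprc, Lrrfip1 and Lrrfip2, that are named for leucine-rich repeats but do not have this fold. Of these 96 genes 26 rose and 12 fell, 39.6% in all against 39.2% of all tested genes, and their median log2 change was 0.06 against -0.01. Without those 3 genes, left out after their values were seen, 25 of 93 rose and 11 fell, or 38.7%. A fall of 1 or more on the log2 scale was reached by 6 of the 96, Lrpprc among them, while 332 of all 11688 genes did so, or 2.84%. Of the 96 genes 27.1% were called higher and 12.5% lower, beside 19.7% and 19.4% of all tested genes, and this difference was not tested. Under scaling to a fixed sum most calls were higher both in these lists and over all genes.

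Of 62 other genes named Lrrc 31 were tested, 7 rose and 3 fell, with a median of 0.13. Lrrc3b, a membrane protein, fell from 15.5 ± 1.08 to 5.09 ± 0.709 FPKM (± SD, n = 4 each, log2 change -1.44, SE 0.10, limma adjusted p = 3.60e-06) and Lrrc14b, a gene of striated muscle, from 57.4 ± 6.60 to 25.5 ± 1.43 FPKM (log2 change -1.14, SE 0.0907, limma adjusted p = 7.37e-06). Both kept their groups apart, with the highest Pos Cre library at 5.73 FPKM for Lrrc3b and 27.2 FPKM for Lrrc14b. Upward, Lrrc52, a subunit of potassium channels, rose from 1.25 ± 0.350 to 3.58 ± 1.13 FPKM and Lrrc75a from 2.47 ± 0.399 to 5.68 ± 0.780 FPKM (log2 changes 1.00 and 0.94, limma adjusted p = 0.00222 and 0.000143). Lrrc8a, the essential subunit of the volume-regulated anion channel, rose from 19.8 ± 1.09 to 26.8 ± 3.84 FPKM (log2 change 0.41, limma adjusted p = 0.00831).

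Among 57 surface and secreted proteins of the family 21 were tested, 8 rose and 4 fell, with a median of 0.11. Lrg1, a secreted glycoprotein that acts in TGF-beta signalling of vessels, fell from 13.6 ± 5.37 to 2.30 ± 0.813 FPKM (± SD, n = 4 each, log2 change -2.11, SE 0.24, limma adjusted p = 7.35e-05), with Neg Cre library 2 highest at 21.3 FPKM. Lingo3, related to a receptor component of axon growth control, fell from 3.82 ± 0.445 to 1.15 ± 0.372 FPKM (log2 change -1.18, limma adjusted p = 8.04e-05). Rtn4r, the Nogo receptor, was called lower (2.03 ± 1.37 to 0.507 ± 0.276 FPKM, limma adjusted p = 0.0354), but its groups overlapped, and the call was lost without Neg Cre library 2 (0.0817) or without Pos Cre library 1 (0.0666), 2 (0.0823) or 3 (0.0865), with no filter (0.161) and in the high-Rn45s libraries alone (0.164). Vasn, which binds TGF-beta, rose from 4.94 ± 0.869 to 12.1 ± 2.52 FPKM (log2 change 1.14, limma adjusted p = 0.000167) and Lrig1, a brake on growth factor receptors, from 12.5 ± 0.327 to 18.5 ± 1.66 FPKM (log2 change 0.52, limma adjusted p = 0.000529). Lgr4, a receptor for R-spondins, was not called, at 15.01 ± 0.523 FPKM in Neg Cre and 15.4 ± 0.590 in Pos Cre.

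Of 14 Toll-like receptors and their coreceptors 7 were tested, 2 rose and 0 fell (limma, 0 lower at an unadjusted p under 0.05), with a median of -0.15. Tlr4, the receptor for lipopolysaccharide, stood at 10.6, 11.9, 9.50 and 10.5 FPKM in Neg Cre libraries 1 to 4 and at 32.4, 36.9, 34.5 and 32.3 FPKM in Pos Cre libraries 1 to 4. The groups were far apart, and Tlr4 rose by 1.59 on the log2 scale (SE 0.0846, limma adjusted p = 9.02e-07). Tlr2 rose from 2.07 ± 0.218 to 3.95 ± 0.312 FPKM (± SD, n = 4 each, log2 change 0.69, limma adjusted p = 0.000247), and Tlr3 was not called, at 3.72 ± 0.591 FPKM in Neg Cre and 3.96 ± 0.476 in Pos Cre. Macrophage markers went the other way, as 5 of 8 fell and 0 rose (limma, 0 higher at an unadjusted p under 0.05), with sums of 296 to 390 FPKM in Neg Cre and 194 to 274 FPKM in Pos Cre libraries.

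The 7 tropomodulins and leiomodins, which cap or nucleate actin filaments in the sarcomere or elsewhere, were all tested. Of these 3 fell and 0 rose (limma, 0 higher at an unadjusted p under 0.05), with a median of -0.23. Tmod4, the skeletal muscle tropomodulin, fell from 20.3 ± 3.28 to 4.94 ± 0.636 FPKM (± SD, n = 4 each, log2 change -1.84, SE 0.13, limma adjusted p = 3.42e-06), Lmod3 from 73.9 ± 11.9 to 38.0 ± 2.30 FPKM and Lmod2, the main cardiac leiomodin, from 309 ± 41.5 to 192 ± 13.7 FPKM (log2 changes -0.93 and -0.67, limma adjusted p = 0.000131 and 0.000600). Tmod1, the tropomodulin of cardiac thin filaments, was not called, at 81.2 ± 4.09 FPKM in Neg Cre and 82.3 ± 7.003 in Pos Cre, as level as Lrrc10 and Lrrc39.

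The last list held 34 other intracellular proteins, of which 30 were tested, 9 rose and 2 fell, with a median of 0.10. Without the 3 genes of another fold, 8 of 27 rose and 1 fell. Nlrc3, a dampener of innate immune signalling, was at 1.17 FPKM or less in each Neg Cre library and at 12.5 FPKM or more in each Pos Cre library (log2 change 3.17, SE 0.15, limma adjusted p = 7.15e-07). Rsu1, a partner of integrin-linked adhesion complexes, rose from 27.7 ± 1.86 to 61.7 ± 8.62 FPKM and the kinase Lrrk2 from 7.34 ± 0.178 to 12.5 ± 0.666 FPKM (± SD, n = 4 each, log2 changes 1.12 and 0.70, limma adjusted p = 1.80e-05 and 3.83e-05). Lrpprc, which stabilises mitochondrial messenger RNA and is named for leucine-rich pentatricopeptide repeats, a different fold, fell from 88.0 ± 1.88 to 41.0 ± 3.68 FPKM (log2 change -1.09, limma adjusted p = 4.42e-06). Flii, an actin regulator, rose from 49.6 ± 2.76 to 58.2 ± 2.40 FPKM (log2 change 0.23, limma adjusted p = 0.0268), a call lost without Neg Cre library 4 (0.0750) or without Pos Cre library 2 (0.0675), 3 (0.0830) or 4 (0.0644), under the replicate block (0.0870) and in the high-Rn45s libraries alone (0.132), with log2 changes of 0.21 to 0.23.

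**Figure D4:**
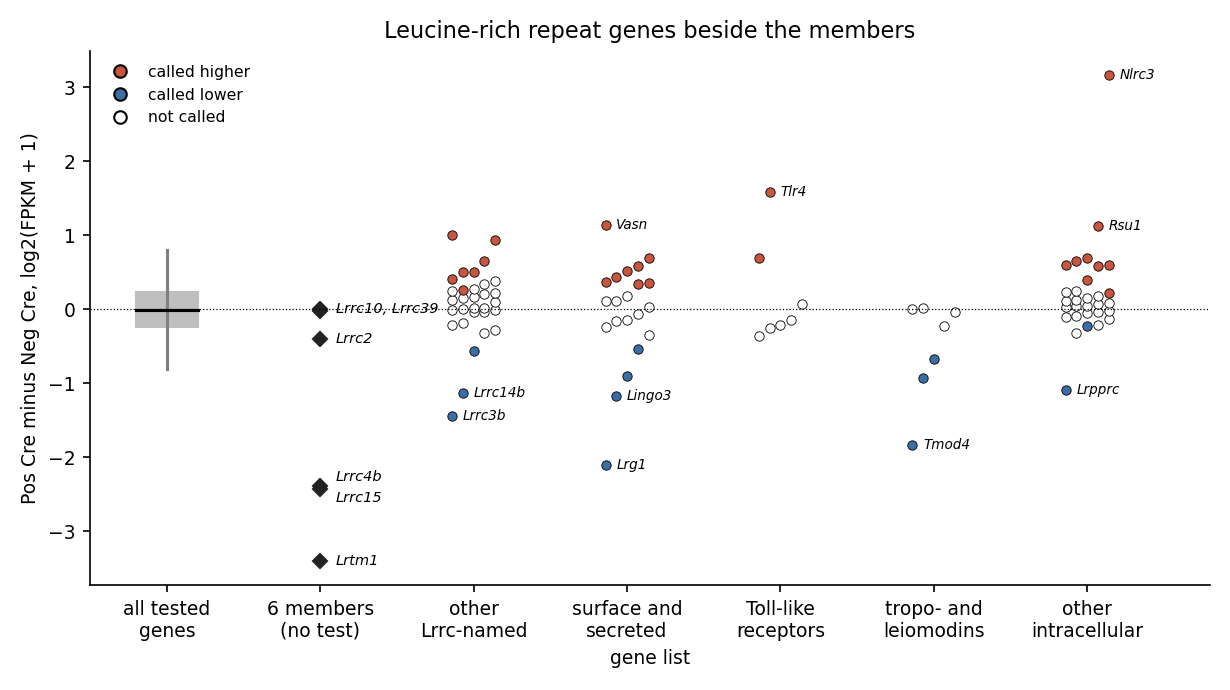
Difference between Pos Cre and Neg Cre means on the log2(FPKM + 1) scale for all tested genes (line from the 5 to the 95 percentile, box from the 25 to the 75 percentile, bar at the median), for the 6 members (diamonds, no test) and for the tested genes of 5 lists of related genes (circles, coloured by call). Lrtm1, Lrrc15 and Lrrc4b lie below the lowest of the 96 related genes, Lrg1 at -2.11, and Nlrc3 at 3.17 is the highest. The members were chosen from this comparison and the related genes were not, so nothing is read from that place.

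The genes whose pattern over the 8 libraries was most like that of each member were found by the root mean square difference of log2(FPKM + 1), with each gene's own mean subtracted. For Lrtm1 these were Ryr2, the calcium release channel of the sarcoplasmic reticulum, at 0.26, and Pln, which restrains its calcium pump, at 0.38. For Lrrc15 they were the integrin gene Itgb6 at 0.15 and the gap junction gene Gja1 at 0.17. For Lrrc4b they were Rpl3l, a ribosomal protein of striated muscle, at 0.19 and again Itgb6 at 0.20, while Lrrc15 and Lrrc4b differed from each other by 0.23. Itgb6 went from 15.01 ± 1.45 to 2.07 ± 0.149 FPKM, Ryr2 from 303 ± 61.7 to 38.2 ± 6.18 FPKM and Gja1 from 237 ± 32.4 to 50.9 ± 3.78 FPKM (± SD, n = 4 each), each with groups that do not overlap. Lrrc2 was most like Tomm70a, a receptor for import into mitochondria, at 0.04 and Mmgt1 at 0.04. Lrrc10 was most like Zscan25 and Xpc, at 0.05 and 0.06, and Lrrc39 most like Cpped1 and Nudcd2, at 0.02 and 0.04. The measure follows the difference between groups where that is large and the scatter between libraries where it is small, so a short distance for Lrrc10 or Lrrc39 shows only a similar scatter.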

How the data were processed

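Per the column headers, the authors deposited 1 FPKM value per gene symbol and library, and the submitters' processing notes list Bowtie2 2.2.6, Cufflinks and the build mm10. The deposited data are named as filtered, but no source used here says what was filtered. The annotation and the use of strand are not named either. Values at 0.01 (32.6% to 39.0% of genes per library) are taken as too low to estimate, and 6 cells of 3 genes that hold a word were treated as missing. Samples were grouped by their titles. Table starts were moved to count from 1, after which 11860 starts equalled those of RefSeq GRCm38 against 680 as written, and other coordinates are those of GENCODE M21. Depth was estimated from 3664 genes with a single annotated transcript of 500 to 4000 bases, where FPKM multiplied by length clusters at the worth of 1 fragment. The estimate covers counting error only.

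Pos Cre was compared with Neg Cre by limma 3.58.1 (R 4.3.3, moderated with an intensity trend) on log2(FPKM + 1), over the 11688 genes whose mean reached 1 FPKM. Adjustment followed Benjamini and Hochberg over all of them, and genes were called at an adjusted p under 0.05. Alternatives changed the pseudocount, the filter, the scaling, the variance trend and the libraries used. On 5 simulated tables per size, of 11688 genes each for Pos Cre against Neg Cre, 92.3% of changes of 1 and 40.5% of changes of 0.5 on the log2 scale were recovered, with 5.14% and 4.48% of calls false. The simulated tables had a far smaller share of changed genes than was called here, and noise independent between genes. These rates therefore need not hold for the data.

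The members, lists and tests were chosen with earlier results of these data known. Named genes are the members, Med13 and Med13l, the partners, the neighbours, the 2 genes of most like pattern, and of each list the up to 4 called genes with the largest change and the 2 most abundant. Lists matched older symbols through RefSeq synonyms (Erbin and Carmil2), and Carmil1 and Carmil3 were counted among the genes named Lrrc. Marker lists not described elsewhere gave 1 higher and 3 lower of 8 endothelial genes, 3 higher and 2 lower of 8 of smooth muscle and pericytes, 1 higher and 1 lower of 2 tested of skeletal muscle, and no tested gene of adipocytes.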

Additional observations from a re-analysis of the deposited data

Results flagged for a closer look

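In groups of 4 libraries, a library was singled out when its gap to the nearest other library took up more of the range of the group than the 95% critical value of Dixon allows. Of 130 groups tested 8 met this, and chance alone gives about 1 in 20. None of the 8 concerned one of the 6 members. Med13l stood at 6.13 FPKM in Neg Cre library 3, against 4.38 to 4.62 FPKM in the other Neg Cre libraries. Pln stood at 3028 FPKM in the same library, against 3490 to 3561 FPKM. In Neg Cre library 2, Lrrc3b stood at 17.1 FPKM against 14.8 to 15.1, Lrig1 at 13.0 FPKM against 12.3 to 12.4, and Tdgf1 at 0.0664 FPKM where the others were listed at 0.01. Lingo3 stood at 3.16 FPKM in Neg Cre library 4 against 3.98 to 4.11. In Pos Cre library 1, Lrpprc stood at 35.5 FPKM against 42.7 to 43.0, and Lrrk2 at 11.5 FPKM against 12.7 to 13.0.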

How the results depend on the processing

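Lrtm1, Lrrc15, Lrrc4b and Lrrc2 were lower in Pos Cre under each alternative that kept them. Lrtm1 ranged from -3.67 to -3.10 on the log2 scale. Lrrc15 became -3.25 and Lrrc4b -3.20 with a pseudocount of 0.1, -2.81 and -2.76 with 0.5, and Lrrc15 -2.17 in the low-Rn45s libraries. Scaling to a fixed sum gave -0.10 for Lrrc2, 0.30 for Lrrc10, 0.27 for Lrrc39 and -0.23 for Med13, whose call was lost (adjusted p = 0.168). Lrrc10 and Lrrc39 changed sign between alternatives. Under that scaling 5154 genes were called higher and 1059 lower, or 83.0% higher against 50.4% as deposited. In it 20 other genes named Lrrc, 32 genes of the other 4 lists, 5 partners and 3 neighbours were called higher and 1 partner lower, while Gata4 (0.024) and Selk (0.25) turned positive. Quantile normalization called 1 neighbour, Cct2, higher and 1 partner lower. With a filter at 5 FPKM, 2 other genes named Lrrc and 1 partner were called higher and 1 neighbour lower, as fewer genes were tested. High-Rn45s libraries alone gave 1 partner higher and 1 lower, and no filter gave 1 partner lower. Leaving out single libraries gave 1 to 2 partners lower, and the cause of these changes was not tested. No pairing by the sample numbers of the titles was seen, as deviations of same-numbered libraries correlated at -0.33 to -0.13 and 0 libraries matched their own number best. With 4 pairs a weak pairing could not be seen. The replicate block called 1963 genes higher and 1899 lower, and 1 partner lower. Averaging Neg Cre libraries 1 and 2 as 1 sample, added after seeing the files, gave 2187 higher and 2126 lower. No sign changed for the 4 members lower in Pos Cre, and the averaging called 3 partners lower, as Myh7 became a call. Depth limits the Pos Cre values of Lrrc15 and Lrrc4b most. Counts were not tested in the low-Rn45s libraries, which hold 1 Neg Cre library.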
